A study of Homo sapiens with 6 samples.

Results

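Interleukin 1 (IL1) signalling was followed through 10 genes of the family and of the sensors that lead to its release: the ligand genes IL1A, IL1B, IL18 and IL33, the receptor antagonist gene IL1RN, the receptor genes IL1R1, IL1R2 and IL1RAP, and the inflammasome sensor genes NLRP1 and NLRP3. They were listed by symbol and matched to 10 of the 58299 Ensembl gene IDs in the count table. Poly(A) RNA came from AC16 cells, a human line made by fusing ventricular cardiomyocytes with transformed fibroblasts. A group of 3 libraries was treated with 0.1% DMSO, the vehicle, and a group of 3 with 100 nM doxorubicin, an anthracycline that poisons type II topoisomerases, for 48 h in both. The series, by its title, concerns NRF2, a transcription factor of the antioxidant response, and protection from doxorubicin. Nothing in the labels tells whether replicates were grown as separate cultures. The p-values therefore speak only of the spread among these 6 libraries, and that spread may be technical.

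IL1 alpha and IL1 beta are inflammatory cytokines that act through the same receptor, in which the ligand-binding chain IL1R1 pairs with the accessory protein IL1RAP. IL1RN encodes a secreted antagonist that occupies IL1R1 without recruiting IL1RAP, and IL1R2 is a decoy receptor without a signalling domain. IL1 beta and interleukin 18 are made as precursors and are cut by caspase 1, which is activated on inflammasomes, protein assemblies built around sensors such as NLRP1 and NLRP3. IL1 alpha is also known as an upstream signal of the secretory programme of senescent cells. RNA levels say nothing on whether precursors were cut or released.

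Total counts ranged from 17252862 to 19571731 per library. Levels are given in CPM, counts per 1000000 counts of the library, scaled by the TMM factors of edgeR. Of the listed cardiomyocyte markers 1 of 12 (TTN) passed the expression filter, and 7 of 12 were at 0 in every DMSO library, whereas 12 of 12 fibroblast markers passed it. Of 12 markers of monocytes and macrophages, a usual source of IL1 beta, 3 passed the filter: 0 were higher (0 also at an unadjusted p below 0.05), CSF1R was lower (112 summed counts in DMSO, 68 in doxorubicin, edgeR adjusted p = 0.022), and PTPRC and CD14 were not called. Without the filter 4 of the 12 were higher (LYZ, ITGAM, CD163 and MRC1), and with DESeq2 3 were, while CSF1R was then not called (adjusted p = 0.13). Over all genes, 17.5% of 34828 were higher without the filter, and 5043 of 22454 were higher with DESeq2. The summed level of all 12 was 4.14 to 5.05 CPM in the DMSO libraries and 5.38 to 6.44 CPM in the doxorubicin libraries. CD68, with 21 counts in all, has 85.8% of its exon bases in exons of other genes, so its level is uncertain. Of the 12, 4 (LYZ, TYROBP, CD163 and MRC1) had 0 counts in every DMSO library, and TYROBP had 0 counts in all 6. The summed counts in DMSO and doxorubicin were 1 and 30 for ITGAM, 0 and 18 for MRC1, 0 and 17 for LYZ, 0 and 8 for CD163 and 1 and 8 for SPI1, and no untested marker exceeded 15 counts in a library. Of 12 keratinocyte markers, another cell type rich in IL1 family transcripts, 4 passed: KRT14, FLG and SFN were higher and KRT10 was not called. FLG and SFN passed only through their doxorubicin libraries, which leaves 1 higher of the 2 that passed in both groups. SFN had 28 summed counts in DMSO and 941 in doxorubicin, KRT14 had 89 and 663, and FLG, a marker of terminal differentiation, had 35 and 395. Too low to be tested, TP63 had 1 and 41 and DSG3 had 0 and 30. KRT5, KRT1 and DSG1 were also too low, with 4, 2 and 5 counts over all 6 libraries together. The summed level of these 12 went from 42.2 to 49.6 CPM in DMSO to 69.9 to 79.8 CPM in doxorubicin. IVL, LORICRIN and KRTDAP, which also mark terminal differentiation, had 0 counts in all 6 libraries. The part of these markers in the results below was not tested. Of 10 endothelial markers 6 passed the filter: PECAM1 was higher, TEK was lower and 4 were not called. PECAM1, VWF, KDR and CLDN5 passed only through their doxorubicin libraries. TIE1 passed only with libraries of both groups counted together, so TEK alone passed in both groups. The summed level of the endothelial markers went from 15.96 to 18.05 CPM in DMSO to 11.48 to 14.04 CPM in doxorubicin. Of the 12 fibroblast markers 2 were higher, 7 lower and 3 not called. Their summed level went from 24639 to 26789 CPM in DMSO to 14122 to 17938 CPM in doxorubicin. Beside the marker counts under the filter, 32.7% of all tested genes were higher and 32.0% lower.

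IL1A and IL1B lie 45.2 kb apart on chromosome 2, and IL1RAP lies on chromosome 3. The sequences before the RefSeq starts of these 3 genes are shown because they are the cytokine genes and the receptor gene that rose with doxorubicin. Each is the 250 bases before the first start listed for the gene in RefSeq (GRCh38.p14), on the strand of the gene. Capitals mark matches to the AP-1 motif TGANTCA or to the TATA box TATAAA.

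IL1A (chr2:112784494-112784743, minus strand): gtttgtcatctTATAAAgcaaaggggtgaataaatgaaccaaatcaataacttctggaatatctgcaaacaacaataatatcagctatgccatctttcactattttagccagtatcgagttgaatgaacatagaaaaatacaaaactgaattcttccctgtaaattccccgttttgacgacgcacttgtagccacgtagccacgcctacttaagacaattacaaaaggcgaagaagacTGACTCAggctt

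IL1B (chr2:112836780-112837029, minus strand): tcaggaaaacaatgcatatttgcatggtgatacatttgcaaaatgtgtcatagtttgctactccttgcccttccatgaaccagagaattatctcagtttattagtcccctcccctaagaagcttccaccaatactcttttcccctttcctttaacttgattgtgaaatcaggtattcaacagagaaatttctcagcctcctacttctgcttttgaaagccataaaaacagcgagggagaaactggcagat

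IL1RAP (chr3:190513835-190514084, plus strand): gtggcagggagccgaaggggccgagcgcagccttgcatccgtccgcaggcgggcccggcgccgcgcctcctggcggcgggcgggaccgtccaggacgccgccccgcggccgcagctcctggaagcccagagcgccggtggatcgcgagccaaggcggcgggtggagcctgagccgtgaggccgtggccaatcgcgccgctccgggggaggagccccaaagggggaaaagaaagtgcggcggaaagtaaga

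The IL1A window holds TGACTCA 12 bases before the start and TATAAA 239 bases before it. The IL1B window holds neither motif, and the IL1RAP window holds neither. The windows of both cytokine genes are AT-rich, with a GC content of 37.6% for IL1A and 40.0% for IL1B, whereas that of IL1RAP is GC-rich at 74.8%. The median over all 35116 windows of the same length was 58.0%. Of the 10 genes, 8 had at least 1 window, 16 windows in all, some of them overlapping. On either strand, TGANTCA occurred in 3 of the 16 windows (both of IL1A and 1 of IL1RN) and in 6.57% of all windows, and TATAAA in 5 of the 16 and in 10.7% of all. The NF-kB consensus, searched with its degenerate bases, occurred in 0 of the 16 and in 5.21% of all. A match describes letters only, and matches on the 2 strands may overlap, as both TATAAA matches of 1 IL1RN window do. The count table places the first exon base 97 bases upstream of this RefSeq start for IL1A, 124 for IL1B and 34 for IL1RAP.

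Of the 10 genes, 6 passed the expression filter. Among these, 4 were higher after doxorubicin (IL1A, IL1B, IL1RAP and NLRP1), 1 was lower (IL1R1) and 1 was not called (IL18), with the call set at an adjusted p below 0.05 in the quasi-likelihood test of edgeR. In the same test 32.7% of the 15358 genes tested were higher and 32.0% lower, together 64.7%. The 2 groups of libraries did not overlap in 5 of the 6 tested genes, against 69.1% of all tested genes. Doxorubicin lay above DMSO in 4 (34.8% of all tested genes) and below it in 1 (34.3%). IL1RN, IL1R2, IL33 and NLRP3 were too low to be tested. IL1A passed the filter only through its doxorubicin libraries, and IL18 only through its DMSO libraries. The plot of the 10 genes by library shows these levels.

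**Figure D1:**
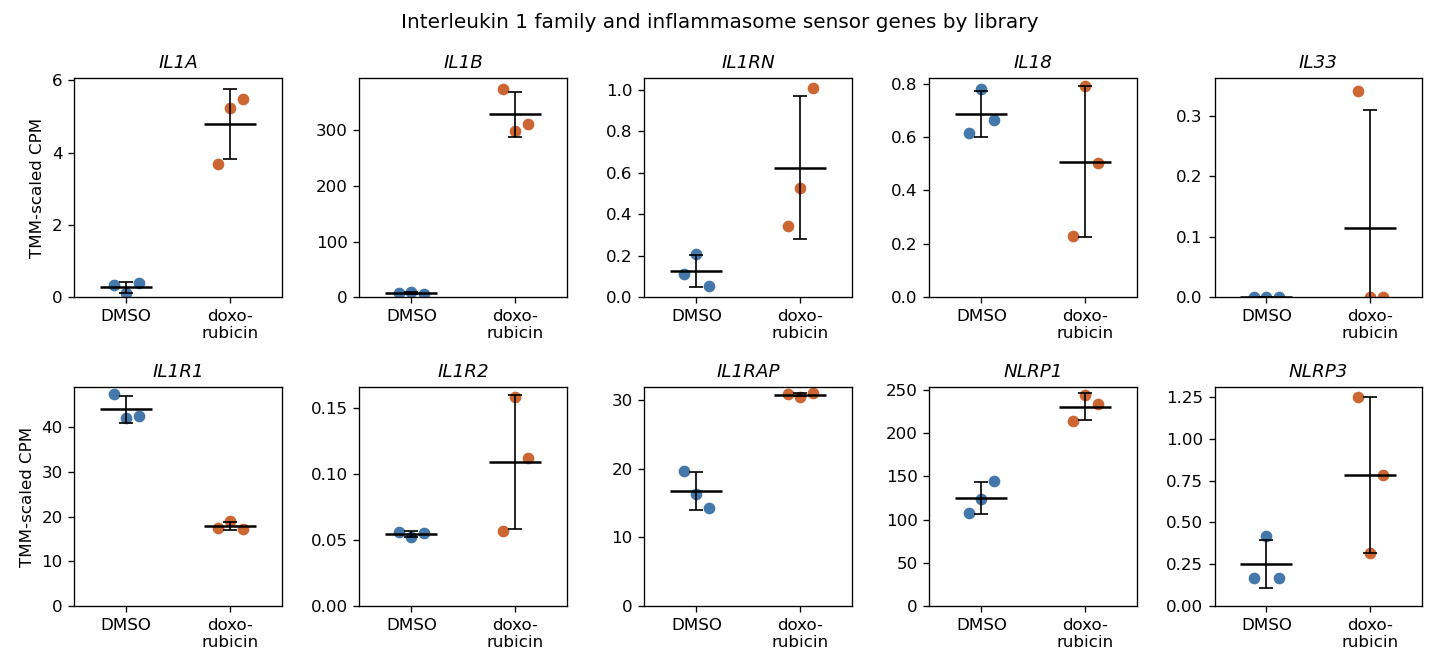
TMM-scaled CPM (vertical axes, each from 0 and on its own scale) of the 10 genes in the 3 DMSO and 3 doxorubicin libraries. Points are libraries, in replicate order from left to right, long black lines are group means and error bars are SD (n = 3); IL1B went from below 9 CPM to above 299 CPM, while IL33 had reads in only 1 library.

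IL1B (ENSG00000125538, chr2:112829751-112836903, GRCh38), which encodes IL1 beta, was measured at 6.99, 8.64 and 5.69 CPM in DMSO replicates 1 to 3. It stood at 375, 299 and 311 CPM in doxorubicin replicates 1 to 3. Every doxorubicin library lay far above every DMSO library, and doxorubicin replicate 1 was the highest of the 6. The mean went from 7.11 ± 1.48 to 329 ± 40.7 CPM (SD, n = 3), a 46.1-fold rise (edgeR adjusted p = 7.1e-11, log2 fold change 5.53 ± 0.14 SE). This was the 138th largest rise among the 15358 genes tested. Per kb of exon, the level of IL1B ranked 9366th of the tested genes in DMSO and 304th in doxorubicin. In bulk RNA, a change in the number of cells that express a gene and a change in RNA per cell cannot be told apart.

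IL1A (ENSG00000115008, chr2:112773915-112784590), which encodes IL1 alpha, was nearly silent in DMSO, with 6, 2 and 7 counts in replicates 1 to 3. The doxorubicin libraries held 65, 99 and 98 counts. The corresponding levels were 0.335, 0.104 and 0.387 CPM in DMSO and 3.69, 5.22 and 5.48 CPM in doxorubicin. The groups did not overlap, and here doxorubicin replicate 1 was the lowest of its group. The mean rose 17.3-fold, from 0.275 ± 0.150 to 4.80 ± 0.968 CPM (edgeR adjusted p = 2.4e-08, log2 fold change 4.11 ± 0.34 SE). From the summed counts, the ratio was 17.7 with an exact 95% counting interval of 10.5 to 32.1. Such intervals cover counting error only.

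IL1RN (ENSG00000136689, chr2:113107214-113134016), the gene of the receptor antagonist, stayed at a handful of reads. It had 2, 4 and 1 counts in the 3 DMSO libraries and 6, 10 and 18 in doxorubicin. Each doxorubicin library was above each DMSO library, with means of 0.125 ± 0.0774 and 0.625 ± 0.344 CPM (SD, n = 3). The ratio of summed counts was 4.93, with a 95% counting interval of 2.15 to 13.2. The gene was not tested under the expression filter. Without that filter it was higher (adjusted p = 0.0021, edgeR, where 32.4% of 34828 genes were called), and DESeq2 also called it (adjusted p = 0.032).

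Agonist and antagonist were compared per exon length within each library, since both proteins bind IL1R1. The ratio of IL1B to IL1RN per kb of exon was 65.7, 43.6 and 108 in DMSO replicates 1 to 3. In doxorubicin replicates 1 to 3 it was 1157, 596 and 325. The groups did not overlap. The mean log2 ratio was 3.17 higher in doxorubicin, with p = 0.10 in an exact two-sided permutation test, the smallest that 3 against 3 can give. The ratio of IL1A to IL1RN was 4.60, 0.766 and 10.7 in DMSO and 16.6, 15.2 and 8.35 in doxorubicin, so these groups overlapped. Its mean log2 ratio differed by 1.93 (p = 0.20, the same exact permutation test), and by 0.87 without DMSO replicate 2. The 2 ratios were the only ones computed, and adjustment over them (Benjamini-Hochberg) leaves both at 0.20. Both ratios rest on the 1 to 4 counts of IL1RN in each DMSO library.

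IL18 (ENSG00000150782, chr11:112143251-112164117), the gene of the other cytokine cut by caspase 1, was low and was not called. It had 11, 15 and 12 counts in the 3 DMSO libraries and 4, 15 and 9 in doxorubicin. The groups overlapped, at 0.686 ± 0.0857 and 0.507 ± 0.282 CPM (SD, n = 3; edgeR adjusted p = 0.41, log2 fold change -0.42 ± 0.43 SE). The counting interval of the ratio was 0.442 to 1.25, which leaves out any rise as large as those of IL1A and IL1B. IL33 (ENSG00000137033, chr9:6215786-6257983) encodes a nuclear alarmin of the family. It had 0 counts in all DMSO libraries and 6, 0 and 0 in doxorubicin replicates 1 to 3, so every read came from doxorubicin replicate 1. A count of 0 over the DMSO group allows up to 0.0543 CPM (3 counts).

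Both chains of the IL1 receptor changed, in opposite directions. IL1R1 (ENSG00000115594, chr2:102064544-102179874), the chain that binds both IL1 forms, stood at 47.4, 42.0 and 42.5 CPM in DMSO replicates 1 to 3. In doxorubicin replicates 1 to 3 it stood at 17.6, 18.9 and 17.2 CPM. No doxorubicin library reached even 20 CPM, and the groups did not overlap. The mean fell 2.45-fold from 43.98 ± 2.96 to 17.9 ± 0.908 CPM (SD, n = 3; edgeR adjusted p = 1.6e-09, log2 fold change -1.29 ± 0.09 SE).

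IL1RAP (ENSG00000196083, chr3:190514051-190659750), the accessory chain, was measured at 19.7, 16.4 and 14.2 CPM in DMSO replicates 1 to 3. The doxorubicin libraries lay close together at 30.9, 30.6 and 31.0 CPM, all above DMSO. The mean rose 1.84-fold from 16.8 ± 2.76 to 30.8 ± 0.229 CPM (SD, n = 3; edgeR adjusted p = 2.1e-06, log2 fold change 0.88 ± 0.11 SE). Of its exon bases, 4.63% lie in exons of another gene on the same strand, which had 0 counts. IL1R2 (ENSG00000115590, chr2:101991844-102028544), the decoy receptor, was at the edge of detection, with 1 count in each DMSO library and 1, 3 and 2 in doxorubicin replicates 1 to 3. Its ratio of summed counts, 2.03, had a counting interval of 0.433 to 12.5, so a difference was not detectable at this depth.

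The sensor genes differed in abundance. NLRP1 (ENSG00000091592, chr17:5499427-5619424), a sensor kept inactive by the peptidases DPP8 and DPP9, was the most abundant of the 10 genes per kb of exon in DMSO. It stood at 108, 124 and 145 CPM in the 3 DMSO libraries and at 214, 245 and 234 CPM in doxorubicin. All doxorubicin libraries were above all DMSO libraries. The mean rose 1.84-fold from 126 ± 18.6 to 231 ± 15.3 CPM (SD, n = 3; edgeR adjusted p = 3.3e-06, log2 fold change 0.88 ± 0.09 SE). DPP9 also rose, 1.47-fold from 158 ± 4.81 to 231 ± 13.3 CPM (edgeR adjusted p = 1.1e-06). DPP8 was not called, with means of 55.4 ± 2.96 and 56.2 ± 1.11 CPM (edgeR adjusted p = 0.80).

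NLRP3 (ENSG00000162711, chr1:247416156-247449108), the sensor of many membrane and ion disturbances, was barely expressed. It had 3, 8 and 3 counts in the 3 DMSO libraries and 22, 6 and 14 in doxorubicin. Doxorubicin replicate 2 fell within the DMSO range and replicate 1 was the highest. The ratio of summed counts was 3.04, with a counting interval of 1.63 to 6.03. NLRP3 was not tested under the expression filter. Its call depended on the setting: without the filter the adjusted p was 0.00996 (edgeR), and by DESeq2 it was 0.078. With 1 library left out, it entered the test in 4 of 6 fits and was called in 2 of them.

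Per kb of exon, the order of levels changed with treatment, as the plot of levels per exon length shows. In DMSO the order was NLRP1 at 9.80, IL1R1 at 6.21, IL1B at 2.30, IL1RAP at 1.45 and IL18 at 0.261 CPM per kb, and the ranges of neighbours in this order did not overlap. IL1A followed at 0.130, NLRP3 at 0.0525 and IL1RN at 0.0384 CPM per kb, each overlapping its neighbour. IL1R2 (0.0177 CPM per kb) overlapped the range of IL1RN, and IL33 was last at 0. In doxorubicin IL1B came first at 106 ± 13.1 CPM per kb, above NLRP1 at 18.0 ± 1.20 (SD, n = 3). Then came IL1RAP at 2.67 ± 0.0198, IL1R1 at 2.53 ± 0.128 and IL1A at 2.26 ± 0.456 CPM per kb, whose ranges overlapped from neighbour to neighbour. The means of IL18, IL1RN and NLRP3 lay between 0.165 and 0.193 CPM per kb, with overlapping ranges. The means of IL1R2 and IL33 were lower, at 0.0355 and 0.0349 CPM per kb, but the highest IL33 library, at 0.105 CPM per kb, reached into the ranges of those 3 genes. The ligand-binding and accessory chains, which stood apart in DMSO, were thus at overlapping levels per kb in doxorubicin.

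**Figure D2:**
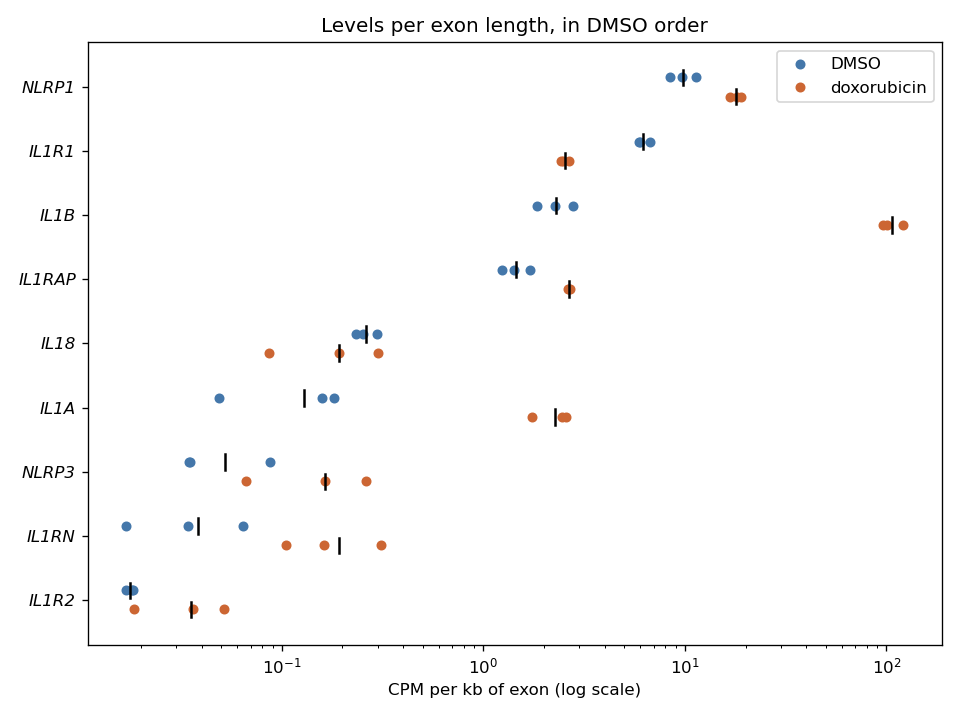
Level per kb of exon (horizontal log axis, CPM per kb) of 9 genes in each DMSO (blue) and doxorubicin (orange) library, with black ticks at the group means; IL33 is left out because 5 of 6 libraries were at 0. IL1B passes from below NLRP1 and IL1R1 in DMSO (2.30) to first in doxorubicin (106), and IL1R1 and IL1RAP come to overlap.

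The other genes of the pathway were read from the same fit. Among the other receptor genes of the family, 3 of 7 passed the filter: IL1RL1 and IL1RL2 were higher and SIGIRR was lower. Of all tested genes 32.7% were higher and 32.0% lower. IL1RL1, which encodes the receptor of interleukin 33, had 1, 0 and 5 counts in DMSO and 41, 25 and 34 in doxorubicin. This is a 16.9-fold ratio of summed counts with a counting interval of 7.50 to 47.2 (adjusted p = 1.0e-05, edgeR). It too passed the filter only through its doxorubicin libraries. The log2 fold change of IL1RL1 was 3.41 without DMSO replicate 2 and 5.77 without DMSO replicate 3, which held 5 of its 6 DMSO counts. IL1RL2, the receptor of the interleukin 36 cytokines, rose 2.14-fold, with means of 1.28 ± 0.387 and 2.76 ± 0.460 CPM (edgeR adjusted p = 0.0017). SIGIRR, known as a negative regulator of the family, fell 2.65-fold, with means of 4.94 ± 0.372 and 1.86 ± 0.251 CPM (edgeR adjusted p = 9.1e-06). IL1R1, which fell, and IL1RL2, which rose, lie 7.10 kb apart on chromosome 2.

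Among the other ligands and the binding protein IL18BP, 1 of 7 passed. IL18BP, which neutralises interleukin 18, was measured at 5.39 ± 0.528 CPM in DMSO and 10.8 ± 1.501 CPM in doxorubicin (log2 fold change 1.00, adjusted p = 1.7e-05, edgeR). Of its exon bases, 15.6% lie in exons of NUMA1, a gene of the other strand with 16720 counts against 887, and the libraries carry no strand. The interleukin 36 genes, IL37 and IL1F10 had at most 6 counts in any library. IL36B, at 0 in DMSO and with 6, 4 and 0 counts in doxorubicin replicates 1 to 3, was called only without the filter.

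All 16 genes of receptor-proximal signalling were tested: 4 were higher (IRAK1, TRAF6, TAB3 and IKBKB), 4 lower (IRAK3, TAB1, TAB2 and CHUK) and 8 were not called. That is 50% called, beside 64.7% of all tested genes. Their median log2 fold change was 0.0071, beside -0.0013 for all tested genes. MYD88, the adaptor that links the receptor to the IRAK kinases, was at 23.0 ± 0.544 CPM in DMSO and 22.3 ± 1.59 CPM in doxorubicin (edgeR adjusted p = 0.65, log2 fold change -0.05 ± 0.09 SE). TAB3, an adaptor of the kinase TAK1, rose 3.60-fold, with means of 23.3 ± 0.265 and 83.9 ± 10.7 CPM (edgeR adjusted p = 4.3e-11), and IKBKB, the kinase IKK beta, rose 1.97-fold, with means of 68.0 ± 3.13 and 133.7 ± 6.29 CPM (edgeR adjusted p = 2.0e-09). IRAK3, an inhibitory member of the IRAK family, fell 1.45-fold, with means of 5.16 ± 1.06 and 3.55 ± 0.570 CPM (edgeR adjusted p = 0.024). Its groups overlapped, and it was not called by DESeq2 (adjusted p = 0.073) or without DMSO replicate 1 or 2 or doxorubicin replicate 1 or 2 (edgeR adjusted p = 0.066 to 0.104). TRAF6 was not called by DESeq2 (adjusted p = 0.053) or without DMSO replicate 2 or doxorubicin replicate 2 (edgeR adjusted p = 0.075 and 0.0501), and IRAK1 not without DMSO replicate 1 (edgeR adjusted p = 0.053). The number of genes higher ranged from 3 to 5 over the alternatives. Without DMSO replicate 2, or without doxorubicin replicate 2, only 2 genes of the list (TAB2 and CHUK) were lower.

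Of 27 genes of the inflammasome machinery, 16 passed the filter: 10 were higher, 2 lower and 4 were not called, beside 32.7% higher and 32.0% lower among all tested genes. Their median log2 fold change was 0.66. CASP1 (ENSG00000137752, chr11:105025443-105035250), which encodes caspase 1, was at 2.91, 1.98 and 2.26 CPM in DMSO replicates 1 to 3. In doxorubicin replicates 1 to 3 it was at 53.9, 46.2 and 44.2 CPM. The groups lay far apart, and the mean rose 20.2-fold, with means of 2.38 ± 0.475 and 48.1 ± 5.11 CPM (edgeR adjusted p = 1.9e-13, log2 fold change 4.34 ± 0.14 SE). CARD16, an inhibitory copy of the caspase 1 recruitment domain, rose 3.93-fold, from 0.943 ± 0.0604 to 3.72 ± 0.484 CPM (edgeR adjusted p = 1.9e-06). Its sequence is close to that of CASP1, so the split of reads between the 2 genes is uncertain.

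The adaptor ASC joins sensors to caspase 1. Its gene, PYCARD, rose 1.47-fold, with means of 8.63 ± 0.923 and 12.7 ± 1.70 CPM (edgeR adjusted p = 0.0017). Of the exon bases of PYCARD, 59.7% lie in exons of opposite-strand PYCARD-AS1, which had 7 counts against 1167, and the libraries carry no strand. GSDMD, the gene of the pore protein that caspase 1 cuts, was at 90.6 ± 5.39 and 96.5 ± 5.54 CPM, with overlapping groups (log2 fold change 0.09 ± 0.07 SE, adjusted p = 0.26). NINJ1, which ruptures the plasma membrane in lytic death, rose 3.89-fold, with means of 30.0 ± 2.46 and 116.9 ± 8.27 CPM (edgeR adjusted p = 4.6e-12).

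Chosen after their values were seen, 4 more genes are given. GSDME, a pore protein cut by caspase 3, rose 3.03-fold from 27.7 ± 1.32 to 84.1 ± 9.01 CPM, and CASP4, a sensor of intracellular lipopolysaccharide, rose 2.25-fold from 19.1 ± 2.28 to 43.1 ± 2.35 CPM. The 2 genes that were lower were NEK7, a kinase needed by NLRP3, which fell 2.58-fold from 341 ± 22.1 to 132 ± 19.3 CPM, and CARD8, a sensor related to NLRP1, which fell 2.10-fold from 22.0 ± 2.23 to 10.4 ± 1.28 CPM. All 4 had adjusted p of 6.1e-07 or lower (edgeR). The plot of fold changes shows the tested family genes above these.

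**Figure D3:**
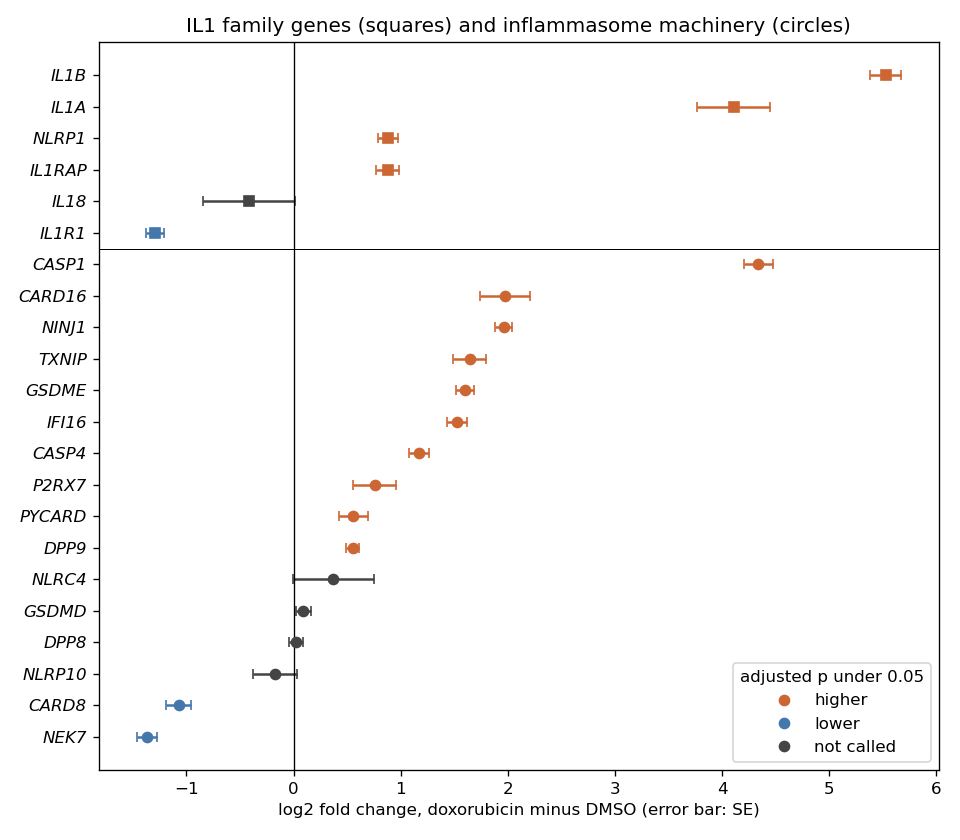
Log2 fold change of doxorubicin minus DMSO (horizontal axis) with its SE for the 6 tested family genes (squares, upper block) and the 16 tested genes of the inflammasome machinery (circles), coloured by call at an adjusted p under 0.05. IL1B (5.53), CASP1 (4.34) and IL1A (4.11) lie farthest to the right, and NEK7 (-1.37) and IL1R1 (-1.29) farthest to the left.

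Of 10 genes of proteases that can process IL1 precursors and their regulators, 6 passed the filter: 2 were higher (CTSB and CAST), 1 lower (CAPNS1) and 3 were not called. That is 50% called, beside 64.7% of all tested genes, and the median log2 fold change was 0.22. CTSB, the lysosomal protease cathepsin B, rose 2.25-fold, with means of 380.5 ± 19.9 and 858 ± 165 CPM (edgeR adjusted p = 3.0e-05). CAST, the calpain inhibitor, rose 1.25-fold, with means of 195 ± 2.42 and 242 ± 9.16 CPM (edgeR adjusted p = 1.9e-04), and CAPNS1, the small calpain subunit, fell 1.13-fold, with means of 346 ± 4.07 and 306 ± 10.7 CPM (edgeR adjusted p = 0.014). CTSG, ELANE and PRTN3, neutrophil proteases, had at most 4 counts in any library.

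Among 25 genes that IL1 signalling is known to induce, 19 passed the filter: 16 were higher, 2 lower (CXCL5 and NFKBIA) and 1 was not called, where 32.7% of all tested genes were higher. Of the 16 higher genes, CSF2, CSF3 and MMP1 passed the filter only through their doxorubicin libraries. Genes that pass in this way can be called higher or not called, but hardly lower. The 16 tested genes that passed in both groups included 13 that were higher, 2 lower and 1 not called. The median log2 fold change was 1.17 over the 19 and 0.87 over these 16. CSF2 had 0 counts in every DMSO library and 36, 19 and 20 in doxorubicin, which is at least 25.4-fold higher than the level that 3 counts in the DMSO libraries together would give, and with this bound in place of its fitted value the median was also 1.17. IL6, interleukin 6, was at 2.18, 3.12 and 3.92 CPM in the 3 DMSO libraries and at 16.0, 20.2 and 18.9 CPM in doxorubicin. The rise was 5.95-fold (adjusted p = 1.7e-09, edgeR). Of the exon bases of IL6, 20.7% lie in exons of opposite-strand IL6-AS1, which had 57 counts against 1171. PTGS2, cyclooxygenase 2, rose 4.31-fold (edgeR adjusted p = 1.7e-04), from 1.51, 1.72 and 0.939 CPM in DMSO, with doxorubicin replicate 1 at 9.15 CPM and replicates 2 and 3 at 4.27 and 4.70 CPM.

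CSF3, granulocyte colony-stimulating factor, had 1, 2 and 0 counts in DMSO and 91, 12 and 23 in doxorubicin replicates 1 to 3 (adjusted p = 0.0195, edgeR). Doxorubicin replicate 1 held most of its reads. Without that library its log2 fold change went from 5.26 to 3.98 (adjusted p = 9.0e-05). Without DMSO replicate 1, 2 or 3 it was not called (adjusted p = 0.076, 0.067 and 0.089), with a log2 fold change of CSF3 of 6.07 without DMSO replicate 2. CXCL5 was not called by DESeq2 or without DMSO replicate 2, doxorubicin replicate 1 or doxorubicin replicate 3, so that only NFKBIA, the NF-kB inhibitor, was then lower. The genes of this list are known to respond to other signals as well as to IL1.

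**Figure D4:**
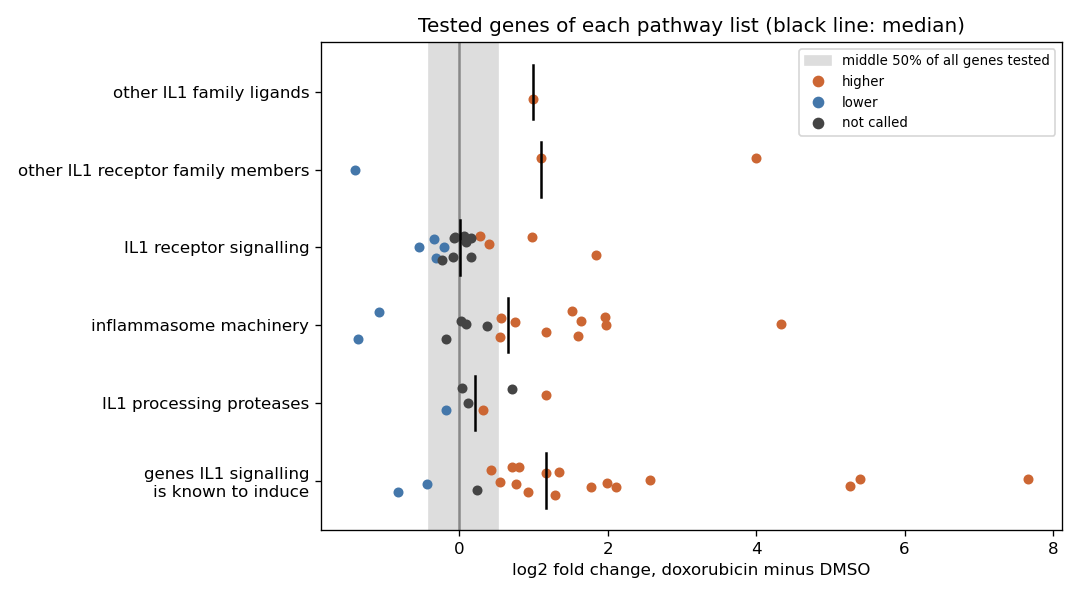
Log2 fold change of doxorubicin minus DMSO (horizontal axis) for each tested gene of the 6 pathway lists, coloured by call at an adjusted p under 0.05, with list medians as black lines and the middle 50% of all tested genes (-0.41 to 0.52) shaded; points are spread vertically at random. The rightmost point is the fitted value of CSF2, which had 0 counts in DMSO and so no finite fold. Outside the shaded band lie the medians of the induced genes (1.17), other receptors (1.10, 3 genes), other ligands (1.00, 1 gene) and inflammasome machinery (0.66). Those of the proteases (0.22) and receptor signalling (0.0071) lie inside it.

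The genes with profiles nearest to those of IL1B and IL1R1 were sought among 12963 tested protein-coding genes, by Euclidean distance between centred log2 CPM values over the 6 libraries. Nearest to IL1B were a gene without a symbol (ENSG00000285188, distance 0.365), FAM13C (0.398), the TNF receptor family gene TNFRSF14 (0.478), the synaptic gene UNC13A (0.507) and MAB21L2 (0.511). Nearest to IL1R1 were SALL2 (0.0791), the utrophin gene UTRN (0.119), DOCK1 (0.128), SEPHS1 (0.132) and the mitotic spindle gene NUSAP1 (0.141). In this measure, genes with a difference of like size between the groups lie near each other.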

How the data were processed

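RNA-seq gene expression was measured in 6 AC16 libraries, 3 per treatment, grouped by their titles. The authors deposited raw counts per Ensembl gene (unstranded, poly(A)-selected libraries, per the labels' protocols). Tools listed in the submitters' processing notes are featureCounts, Subread, STAR and SAMtools, with GRCh38 (hg38) as the build; versions and settings are not given in the sources used here. Of 58299 IDs, 57717 had a symbol in the gene name table; GENCODE release 29 supplied gene types and exon overlaps, and the deposited table the exon lengths. SOD2 had 2 IDs, and the one with more counts was used. Columns of other samples numbered 0.

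Counts were fitted on the whole table with edgeR 4.0.16 in R 4.3.3 (filterByExpr defaults, minimum count 10 and minimum total 15; TMM; robust quasi-likelihood F test, two-sided, doxorubicin against DMSO, Benjamini-Hochberg over 15358 genes). Standard errors (SE) are the absolute log2 fold change over the root of the F statistic. CPM per kb divides CPM by summed exon length. The procedure was also run on simulated data in which few genes changed, all of them above a minimum mean count. That run does not bear on genes with few counts, nor on scaling when most genes change. Counting intervals are exact 95% intervals. Depth, 17252862 to 19571731 counts, sets the floor of 0.0543 CPM (3 counts over the DMSO group).

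The members and the lists were chosen with earlier results of these data known. Named genes are the members, MYD88, PYCARD, CASP1 and GSDMD, and the 5 nearest profiles of the members with the largest rise and fall. In each list, the 3 called genes that changed most, either way, were also named, among those whose mean log2 CPM was 0 or more. Genes named beyond this to account for a small count were chosen after their values were seen, as were GSDME, CASP4, CSF2, DPP8 and DPP9. Alternatives were DESeq2 1.42.0, RLE, upper-quartile and library-total scaling, no filter, a minimum of 1 CPM in 3 libraries, a replicate block, and each library left out.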

Additional observations from a re-analysis of the deposited data

How the results depend on the processing

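IL1A, IL1B, IL1R1, IL1RAP and NLRP1 kept their direction and their call, and IL18 stayed uncalled, in every alternative that tested them (13 each, 12 for IL18). The log2 fold change ranged from 5.38 to 5.69 for IL1B, 3.70 to 4.43 for IL1A, -1.34 to -1.24 for IL1R1, 0.77 to 1.00 for IL1RAP, 0.77 to 0.99 for NLRP1 and -0.90 to -0.08 for IL18. Members called higher numbered 4 to 6, with 6 when no filter was used (IL1RN and NLRP3 added) and 5 with DESeq2. In those settings 17.5% of 34828 genes (no filter) and 5043 of 22454 genes (DESeq2) were higher. Of the members, 1 was lower throughout. With no filter, 2 of the other ligand genes were higher (IL18BP and IL36B), as more genes were tested. DESeq2 called 1 of the IL1-induced genes lower. With 1 library left out, members higher ranged from 4 to 5, IL1 receptor signalling genes lower from 2 to 4 and IL1-induced genes lower from 1 to 2. IL1-induced genes higher ranged from 14 to 17 over the alternatives. Among them, CXCL1 was not called by DESeq2 or without DMSO replicate 1, DMSO replicate 3 or doxorubicin replicate 2. NLRP3 was called without DMSO replicate 2 or doxorubicin replicate 2 (edgeR adjusted p = 0.014 and 0.0037), not called without DMSO replicate 1 or 3 (0.073 and 0.075), and not tested in the other 2 such fits. Replicate numbers gave no sign of pairing the libraries: deviations of same-numbered libraries correlated at 0.052, -0.023 and 0.027. Those of differently numbered libraries correlated at -0.072 to 0.058, and 3 libraries per group cannot exclude a pairing. A replicate block moved the edgeR adjusted p of genes either way: 0.0195 to 1.2e-06 for CSF3, 0.0097 to 0.018 for IRAK1. With the number as a replicate block, 4 members were higher and 1 lower, and 9920 genes were called against 9934; the IL1B to IL1RN log2 ratio difference was 3.17 (exact p = 0.25, the smallest 3 pairs allow). Leaving out a library gave 2.70 to 3.62 for that difference and 0.87 to 2.77 for IL1A to IL1RN; adding 0.5 counts gave 3.44 and 2.05. Depth limits IL1RN, IL1R2, IL33 and NLRP3, which had at most 22 counts in any library.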
